A study of Rattus norvegicus with 6 samples.

Results

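Ubd and Fam111a were 2 of the 15278 named genes on an Agilent rat array, and both were chosen by the values described here: in earlier results of these same arrays, their signal in the kidney cortex lay either at a high or at a far lower level. Their probes were found through the RefSeq accession that the scanner files give, which returned 1 probe for Ubd and 3 for Fam111a, and all 4 passed the filter applied to every probe, a signal well above background in 3 or more arrays of 6. The arrays held renal cortex RNA of male Sprague-Dawley rats, an outbred stock, bought at an age of 5 weeks. In the phenolphthalein group, 3 rats were given the laxative dye phenolphthalein at 1000 mg/kg/day for 4 weeks, and in the vehicle group 3 rats were given corn oil for 4 weeks. Each array held the RNA of 1 rat, labelled with the single dye Cy3. The comparison asks how gene expression in the renal cortex differs after phenolphthalein.

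Ubd encodes FAT10, a ubiquitin-like protein with tandem ubiquitin-like domains that is joined to other proteins and directs them to the proteasome. It is known as a gene that interferon gamma and tumour necrosis factor induce together, and it lies in the major histocompatibility complex region. In the kidney, its human counterpart is known from tubular epithelium in HIV-associated nephropathy. Fam111a encodes a nuclear serine protease. The human protein binds the replication clamp PCNA, helps replication forks pass proteins attached to DNA, and restricts the host range of some DNA viruses, and variants of it cause inherited hypoparathyroidism with short stature.

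Ubd and Fam111a lie on different chromosomes, 20 and 1, and are shown here with the sequence before their starts. Their levels had the same split of the arrays, and both genes were chosen by those levels. The sequences are RefSeq's for the GRCr8 assembly, which comes from a Brown Norway rat and not from the animals studied. Ubd is on the minus strand and its stretch is chr20:1392686-1392935, the 250 bases before the gene. Fam111a is on the plus strand and its stretch is chr1:219065389-219065541, the 153 bases before the first annotated base of the gene. Capitals mark a match to the NF-kB pattern.
Ubd: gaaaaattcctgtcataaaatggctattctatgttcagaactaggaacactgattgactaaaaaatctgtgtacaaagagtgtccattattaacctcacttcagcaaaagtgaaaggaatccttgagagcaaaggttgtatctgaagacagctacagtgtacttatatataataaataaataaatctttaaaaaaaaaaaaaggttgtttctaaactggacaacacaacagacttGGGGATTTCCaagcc
Fam111a: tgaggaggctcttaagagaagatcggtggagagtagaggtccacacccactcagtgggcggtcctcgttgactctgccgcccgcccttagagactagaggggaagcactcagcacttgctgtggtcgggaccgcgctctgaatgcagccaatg
Both strands were searched for 4 patterns. The NF-kB pattern, GGG and CC with any 5 bases between them, matched once before Ubd, 5 bases from the start of the gene, and 43.5% of 27457 RefSeq promoters hold it in a stretch of the same length. It had no match before Fam111a, where 28.2% of stretches of that length hold one. The patterns TTCNNNGAA, where N is any base (the GAS element), GAAA followed by another GAAA after any 2 bases (the interferon-stimulated response element) and TATAAA (the TATA box) had no match in either stretch. Of all promoters, 7.52%, 3.29% and 13.1% hold them in 250 bases, in that order, and 4.87%, 2% and 7.76% in 153 bases. These are matches of letters in a reference genome and say nothing of binding in these rats.

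Ubd was far lower in 2 of the 3 phenolphthalein rats than in the remaining one and in all vehicle rats. The level of a probe is given as the log2 of its intensity relative to the 75th percentile of its array, so that 0 is that percentile and a step of 1 is a doubling. Ubd stood at -4.20, 2.72 and -3.18 in phenolphthalein replicates 1, 2 and 3, and at 2.52, 2.18 and 2.95 in vehicle replicates 1, 2 and 3. Phenolphthalein replicate 2 lay within the range of the vehicle arrays, so the groups overlapped, while replicates 1 and 3 lay below every other array. Between the lower of the high arrays, vehicle replicate 2, and the higher of the low arrays, phenolphthalein replicate 3, the gap was 5.36 on the log2 scale, a 41.1-fold step. The vehicle arrays spanned only 0.77 on the same scale.

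In scanner units, the Ubd spot read 57.2, 6361 and 101 in the phenolphthalein arrays and 5652, 4640 and 7361 in the vehicle arrays. The scanner software's own error was 11.7% of the signal in phenolphthalein replicate 1 and 10.4% in replicate 3. Ubd was well above background on all 6 arrays. Of the 308 negative control spots of phenolphthalein replicates 1 and 3, the 95th percentiles were -7.96 and -8.10 and the highest spots -3.78 and -4.58. Ubd lay above both 95th percentiles, but in replicate 1 it lay below the highest control spot. All-or-none is thus not the right name for Ubd by the scanner software's detection call, which was positive in both low rats.

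Fam111a was split in the same way, with the same 2 phenolphthalein rats low, and here the scanner software did not call all of the low spots well above background. The brightest of its probes, A_44_P899616, stands for the gene. It gave -5.26, 0.54 and -6.34 in phenolphthalein replicates 1, 2 and 3, and 1.78, -0.81 and 0.87 in vehicle replicates 1, 2 and 3. Phenolphthalein replicate 2 again lay inside the vehicle range, and the gap below vehicle replicate 2 was 4.45 on the log2 scale, a 21.8-fold step. The spot of replicate 3 was not well above background, so its level is only a bound of at most -6.31.

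The other 2 probes of Fam111a gave the same picture. Probe A_64_P065265 gave -5.62, -0.62 and -6.44 in the phenolphthalein arrays and 0.79, -1.18 and 0.08 in the vehicle arrays, with a gap of 4.44. Its spot in phenolphthalein replicate 3 was not well above background, so that level is only a bound of at most -6.31. Probe A_44_P304009 gave -6.72, -0.87 and -6.62 in the phenolphthalein arrays and 0.72, -1.41 and -0.09 in the vehicle arrays. Neither of the low spots of this probe was well above background, so that its step was at least 25.9-fold. On each of the 3 probes, the 4 high arrays stood in one order, with vehicle replicate 1 highest, then vehicle replicate 3, phenolphthalein replicate 2 and vehicle replicate 2. The probes correlated with each other over the arrays with Pearson's r between 0.991 and 0.998, a description over 6 arrays that all 3 probes share. Next to Fam111a the gene table lists Fam111al1, with no gene between them. No probe matched that gene, and how much of the signal a related copy adds was not tested.

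**Figure D1:**
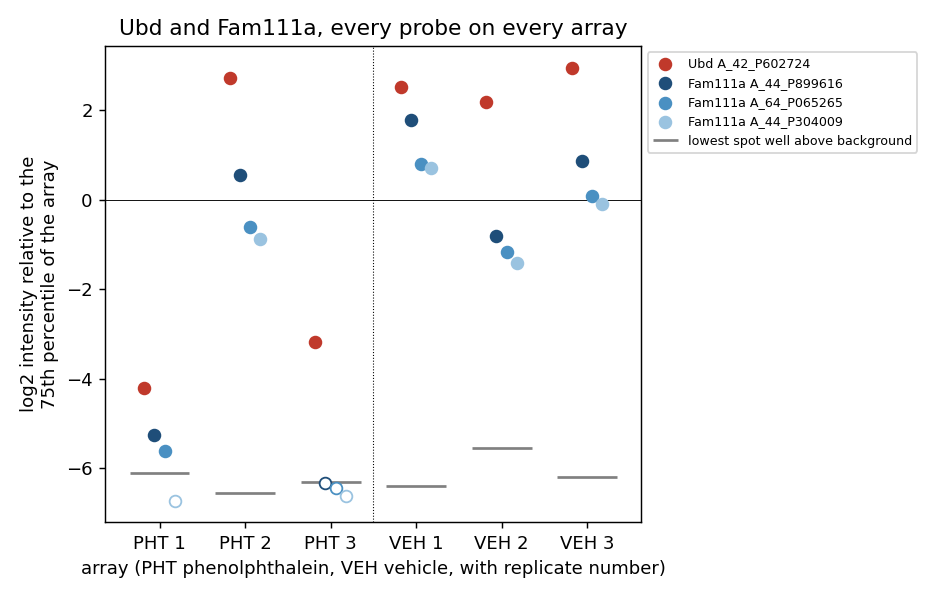
Level of the Ubd probe and the 3 Fam111a probes on each array, with phenolphthalein (PHT) replicates left of vehicle (VEH) replicates and log2 intensity relative to the 75th percentile of the array on the vertical axis. Open points are spots not well above background and grey bars are the lowest spot well above background on each array. Phenolphthalein replicates 1 and 3 lie apart from the other 4 arrays for all 4 probes.

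The 4 high arrays differed more for Fam111a than for Ubd. The vehicle arrays spanned 2.59 for Fam111a and 0.77 for Ubd on the log2 scale. Their order was not shared either, since Ubd was highest in vehicle replicate 3 and Fam111a in vehicle replicate 1. Both genes had vehicle replicate 2 as the lowest of the 4.

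As group means, Ubd was at -1.55 ± 3.73 with phenolphthalein and 2.55 ± 0.39 with vehicle (log2 level, SD, n = 3 each), a difference of -4.10. Fam111a was at -3.68 ± 3.70 with phenolphthalein and 0.62 ± 1.31 with vehicle (log2 level, SD, n = 3 each), a difference of -4.30. Both differences are close in size to the SD within the phenolphthalein group. They are descriptions with no test, since the genes were chosen for this contrast in these arrays. Without phenolphthalein replicate 2, the differences were -6.24 for Ubd and -6.41 for Fam111a. Without replicate 1 they were -2.78 and -3.51, and without replicate 3 they were -3.29 and -2.97, in the same order of genes.

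Background correction with normexp, which adds an offset, brought the low values closer to the high ones. It gave a difference of -2.85 for Fam111a and -3.49 for Ubd, and gaps of 2.81 and 4.65 with the same arrays low. In renal cortex, a bulk tissue, less RNA per cell and fewer cells of a type cannot be told apart.

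The low and high states occurred on the same slide. The arrays lay on 3 slides, with all vehicle arrays on 1 slide, phenolphthalein replicate 1 on another, and phenolphthalein replicates 2 and 3 together on the last. On that shared slide, replicate 2 exceeded replicate 3 by 5.90 for Ubd on the log2 scale, or 59.5-fold. For the brightest Fam111a probe the excess was at least 6.85, or at least 115-fold. The group contrast itself cannot be told apart from the slide, as no slide held both groups.

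The 13 spots around the Ubd spot showed no such step. Their median deviation from each spot's own mean over the arrays was -0.07, -0.01 and -0.01 in the phenolphthalein arrays and 0.04, -0.01 and 0.07 in the vehicle arrays. The spots of the 3 Fam111a probes lay in 3 separate places on the array, and the median deviation of the spots around each stayed between -0.20 and 0.23 on every array.

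Which of the phenolphthalein rats was the high one depends on the deposited source. The scanner files, used here, place the high Ubd and Fam111a values in phenolphthalein replicate 2. Each column of the deposited value table, which holds ratios to the 75th percentile of the array, equalled a scanner file with a different replicate number, always from its own group. Its phenolphthalein replicate 1 column held the values 2.72 for Ubd and 0.54 for Fam111a in log2 units, the same as scanner file 2, and its replicate 2 and 3 columns were low. The count of high and low rats in each group is the same in both sources, and the replicate numbers below are those of the scanner files.

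Steps of this size were rare. Of 34405 items, which are named genes or single unnamed probes with a value on all 6 arrays, 77 had a largest gap of at least 3 on the log2 scale between neighbouring arrays, or 0.224%. The median largest gap over all items was 0.20. In 43 of the 77, a low spot was not well above background. With such spots raised to the lowest level well above background on their array, 61 items kept a gap of at least 3, Ubd and Fam111a among them. The arrays were split in 26 different ways, and in 54 of the 77 items a single array stood apart. The split of Ubd and Fam111a, with phenolphthalein replicates 1 and 3 low, was found for 3 items. Besides both genes it was the unnamed probe C_CA_D0081, at -4.65, 1.13 and -4.27 in the phenolphthalein arrays and 2.62, 0.71 and 1.95 in the vehicle arrays. An unnamed probe may measure a transcript that another probe also measures. None of the 77 items (0) was split between all phenolphthalein and all vehicle arrays.

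**Figure D2:**
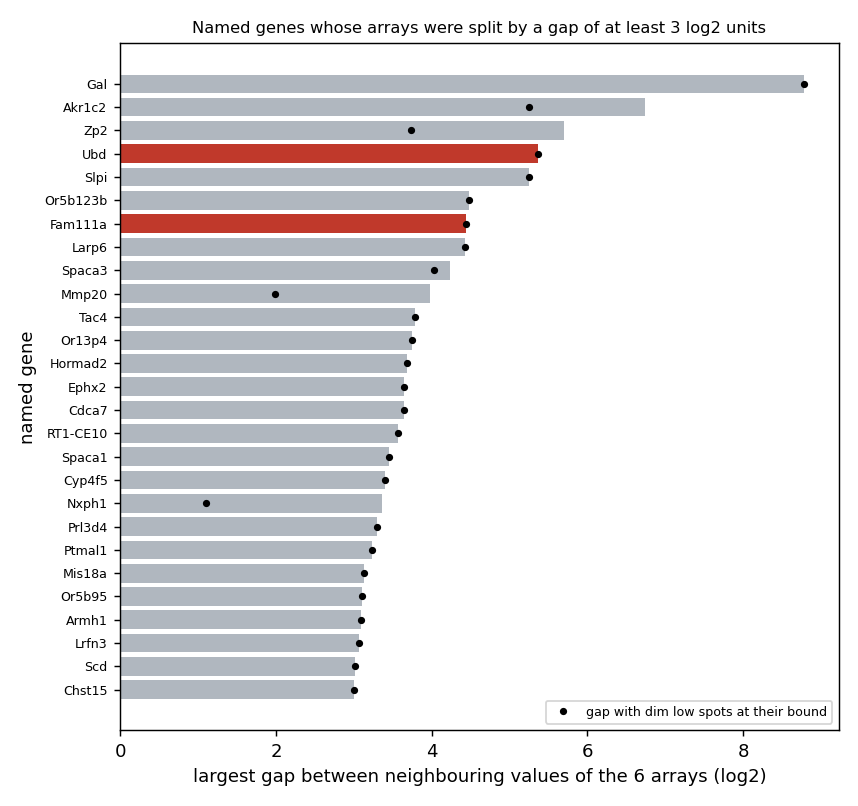
Largest gap between neighbouring values of the 6 arrays, in log2 units, for the 27 named genes with a gap of at least 3. Black points give the gap with low spots that were not well above background raised to their bound, which leaves 25 genes at 3 or more. Ubd (5.36) and Fam111a (4.45) are drawn in red.

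Across all 34423 items tested, phenolphthalein against vehicle gave 0 genes higher (0%) and 0 lower (0%) at an adjusted p under 0.05 (limma, smallest adjusted p = 0.307). At an unadjusted p under 0.05, 3.91% of items were higher and 4.96% were lower. The phenolphthalein mean was below the vehicle mean in 54.2% of items, with a median difference of -0.02 on the log2 scale. These shares are the background for the lists that follow, whose members were chosen with earlier results of these data known.

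The machinery that attaches and reads FAT10 showed no counterpart of the Ubd step. Of 7 tested genes, 3 had a higher and 4 a lower mean with phenolphthalein, 0 passed the adjusted threshold (limma, smallest adjusted p = 0.580) and 0 had an unadjusted p under 0.05. Uba6, the enzyme that activates FAT10, was at -1.91, -1.78 and -1.65 in the phenolphthalein arrays and -1.67, -1.62 and -1.71 in the vehicle arrays, a difference of -0.11 (SE 0.10). Ube2z, the conjugating enzyme that works with Uba6, was at 2.07, 2.03 and 2.08 with phenolphthalein and 1.93, 1.93 and 1.95 with vehicle, a difference of 0.12 (SE 0.05). Its groups did not overlap, as in 6.59% of all items on the higher side.

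Nub1, which brings FAT10 to the proteasome, differed by 0.02 (SE 0.06), and the proteasome receptor Psmd4 by -0.05 (SE 0.05). The FAT10-binding proteins Sqstm1, an autophagy receptor, and Mad2l1, a spindle checkpoint protein, differed by 0.13 (SE 0.09) and -0.06 (SE 0.09). Vcp, a segregase that prepares proteins for the proteasome, differed by -0.000903 (SE 0.06). The widest gap between arrays in this list was 0.17, for Sqstm1.

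Genes of the signals that induce Ubd mostly had lower means with phenolphthalein, by far smaller amounts. Of 14 tested receptors and signalling genes of interferon gamma and tumour necrosis factor, 12 had a lower mean, with a median log2 difference of -0.14, and 1 had an unadjusted p under 0.05. That gene was Tnfrsf1b, a tumour necrosis factor receptor, with a difference of -0.38 (SE 0.15, limma adjusted p = 0.554). Socs1, an inhibitor of interferon signalling, differed by -0.43 (SE 0.20), Irf1, a transcription factor that interferon gamma induces, by -0.26 (SE 0.14), and Ciita, the master regulator of MHC class II genes, by -0.35 (SE 0.20).

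Of 17 tested genes that interferon gamma induces, 14 had a lower mean, with a median log2 difference of -0.51, and 7 were lower at an unadjusted p under 0.05. None of them (0) passed over all items (limma, smallest adjusted p = 0.434). The smallest p in this list were those of Irgm, Tap1, Psmb9 and Psmb8. These genes differed by -0.63 (SE 0.15), -0.72 (SE 0.18), -0.61 (SE 0.19) and -0.56 (SE 0.19). The widest gap in this list was 1.39, for the chemokine gene Cxcl9. In the antiviral list, 23 of 25 tested members had a lower mean, with a median of -0.61, 12 of them at an unadjusted p under 0.05 and 0 past the adjusted threshold (limma, smallest adjusted p = 0.384). Its members with the smallest p were Ifi44, Rtp4, Bst2, which tethers virus particles to the cell, and Irf7, which switches on type I interferon genes. They differed by -0.77 (SE 0.11), -1.11 (SE 0.27), -0.79 (SE 0.20) and -1.01 (SE 0.27).

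By array, the levels of these lists varied far less than Ubd. The median deviation of the interferon gamma induced genes from their own means over the arrays was -0.36, -0.02 and -0.09 in phenolphthalein replicates 1, 2 and 3, and 0.08, 0.52 and 0.07 in vehicle replicates 1, 2 and 3. Phenolphthalein replicates 2 and 3, between which Ubd differed by 5.90, were 0.02 and 0.09 below the mean for these genes. Vehicle replicate 2 had the highest level of this list and the lowest Ubd of the vehicle arrays. The antiviral genes stood at -0.35, -0.01 and -0.43 in the phenolphthalein arrays and 0.11, 0.55 and -0.01 in the vehicle arrays. In both lists phenolphthalein replicates 1 and 3 were the lowest arrays, by a fraction of the Ubd step. The same held for the receptors and signalling genes, where these arrays stood at -0.24 and -0.01. The part of interferon signalling in the Ubd level was not tested.

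Leukocyte markers mostly had lower means with phenolphthalein as well. Of 16 tested markers, 15 had a lower mean with phenolphthalein, 8 at an unadjusted p under 0.05 and 0 past the adjusted threshold (limma, smallest adjusted p = 0.433), with a median difference of -0.51. Their level by array was -0.39, -0.06 and -0.24 with phenolphthalein and 0.13, 0.45 and 0.10 with vehicle. The largest step in that list was 0.75, for Cd3e. Ptprc, the pan-leukocyte marker, was at -0.13, 0.16 and -0.06 with phenolphthalein and 0.51, 0.82 and 0.30 with vehicle. For the list and for Ptprc, phenolphthalein replicates 1 and 3 were the lowest arrays, by a fraction of the Ubd step. Each tested marker was well above background on all 6 arrays except Itgam, which was so on 4. The part of leukocytes in the Ubd and Fam111a levels was not tested.

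Phenolphthalein replicate 2, the high array of its group, also had the highest median level of the 12 hepatocyte markers. Their medians were -0.41, 1.57 and -0.22 in the phenolphthalein arrays and 0.45, -0.30 and -0.96 in the vehicle arrays. Fga, Apoh and Tf did not follow the median. Fga was lowest in phenolphthalein replicate 2, while Apoh was highest in phenolphthalein replicate 1 and Tf in vehicle replicate 1. Of the 12, 11 had a higher mean with phenolphthalein, with a median log2 difference of 0.55, and 0 passed the adjusted threshold (limma, smallest adjusted p = 0.660). The median hepatocyte level of vehicle replicate 3 was the lowest of all, and Ubd was highest there. The part of these markers in the result was not tested. Of the 10 tested markers of renal cortex epithelium and glomerulus, each was well above background on all 6 arrays, and the median level of the list stayed between -0.11 and 0.11. Of these, 7 had a lower mean with phenolphthalein, 3 at an unadjusted p under 0.05 and 0 past the adjusted threshold (limma, smallest adjusted p = 0.357). The 3 were Slc12a3 (-0.39, SE 0.05), Aqp2 (-0.58, SE 0.20) and Slc34a1 (-0.12, SE 0.05). Their groups did not overlap, as in 9.11% of all items on the lower side.

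**Figure D3:**
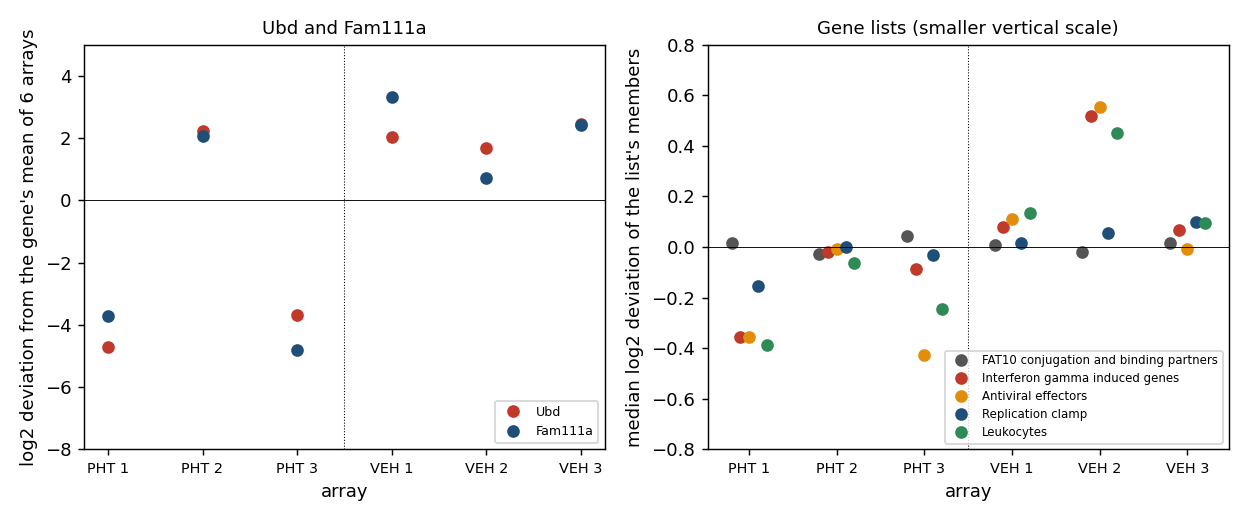
Left, log2 deviation of Ubd and Fam111a from their own means over the 6 arrays; right, median deviation of the members of 5 gene lists, on a smaller vertical scale, with phenolphthalein (PHT) left of vehicle (VEH) replicates. The lists stay between -0.43 and 0.55 on every array, while Ubd and Fam111a differ by over 4 log2 units between arrays.

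Replication fork genes, listed because FAM111A binds PCNA, had no step of the size of that of Fam111a. Of 19 tested genes of the clamp, its loader and the fork, 14 had a lower mean with phenolphthalein, 3 at an unadjusted p under 0.05 and 0 past the adjusted threshold (limma, smallest adjusted p = 0.462), with a median of -0.11. The 3 were Mcm3, a subunit of the replicative helicase (-0.49, SE 0.13), Pola1, the catalytic subunit of DNA polymerase alpha (-0.40, SE 0.12), and Chaf1b, a histone chaperone subunit (-0.27, SE 0.11). The next smallest p was that of Rfc2, a clamp loader subunit (-0.19, SE 0.09). The widest gap in this list was 0.49, for Pold2. By array, the median deviation was -0.15, 8.84e-05 and -0.03 with phenolphthalein and 0.01, 0.06 and 0.10 with vehicle. Phenolphthalein replicates 1 and 3 were the lowest arrays, by a fraction of the Fam111a step.

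Calcium and parathyroid hormone genes were listed because of the human FAM111A disorder. Of 11 tested, 8 had a higher mean with phenolphthalein, 2 at an unadjusted p under 0.05 and 0 past the adjusted threshold (limma, smallest adjusted p = 0.472), and the median was 0.01. The 2 were Atp2b1, a plasma membrane calcium pump (0.26, SE 0.07), and Vdr, the vitamin D receptor (0.43, SE 0.18). The vitamin D enzymes Cyp27b1 and Cyp24a1 differed by -0.53 (SE 0.40) and 0.50 (SE 0.38).

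The genes beside Ubd and Fam111a on their chromosomes were also examined, as the 5 nearest named genes with a tested probe on either side. The 10 genes around Ubd varied by at most 1.39 on the log2 scale over the 6 arrays, and their widest gap was 0.84. Gabbr1, a GABA receptor subunit gene, was at -0.28, -0.43 and -0.29 with phenolphthalein and -0.36, -0.32 and -0.13 with vehicle. Or10c1, an olfactory receptor gene and the nearest tested neighbour on one side, was at -6.26, -5.88 and -5.63 with phenolphthalein and -4.87, -5.34 and -5.44 with vehicle, well above background on 5 arrays. Its groups did not overlap, and its difference of -0.71 had a limma adjusted p of 0.547. RT1-M5, an MHC class I gene, was at -3.05, -2.81 and -2.90 with phenolphthalein and -2.71, -2.71 and -2.69 with vehicle, without overlap, as in 9.11% of all items on the lower side. Its difference was -0.21 (limma adjusted p = 0.616).

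Around Fam111a, Dtx4, a ubiquitin ligase gene, was at -3.64, -4.04 and -4.44 with phenolphthalein and -4.32, -3.77 and -3.54 with vehicle. Glyat, a glycine N-acyltransferase that conjugates acids in kidney and liver, was at 6.10, 6.11 and 6.06 with phenolphthalein and 6.28, 5.75 and 5.77 with vehicle. Neither gene separated phenolphthalein replicates 1 and 3 from the other arrays. Mpeg1, a macrophage pore-forming protein, was at -5.65, -5.32 and -6.44 with phenolphthalein and -4.18, -4.35 and -4.98 with vehicle. Its spot in phenolphthalein replicate 3 was not well above background, so that level is only a bound of at most -6.31. Phenolphthalein replicates 1 and 3 were its lowest arrays. Glyatl2, a related acyltransferase, was at 4.20, 4.32 and 4.68 with phenolphthalein and 3.81, 3.71 and 3.50 with vehicle. The groups of Mpeg1 and Glyatl2 did not overlap, as in 9.11% of all items on the lower side and 6.59% on the higher side. Their differences of -1.30, with the dim spot as measured, and 0.73 had limma adjusted p of 0.470 and 0.433.

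One neighbour of Fam111a had a wide step of its own, split in another way. The olfactory receptor gene Or5b95, with 4 listed genes between it and Fam111a, stood at -3.88, -5.30 and -4.43 in the phenolphthalein arrays and -4.46, -0.65 and -0.78 in the vehicle arrays. It was thus high in vehicle replicates 2 and 3 only. As measured, the other 9 neighbours of Fam111a varied by at most 2.26 over the arrays.

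**Figure D4:**
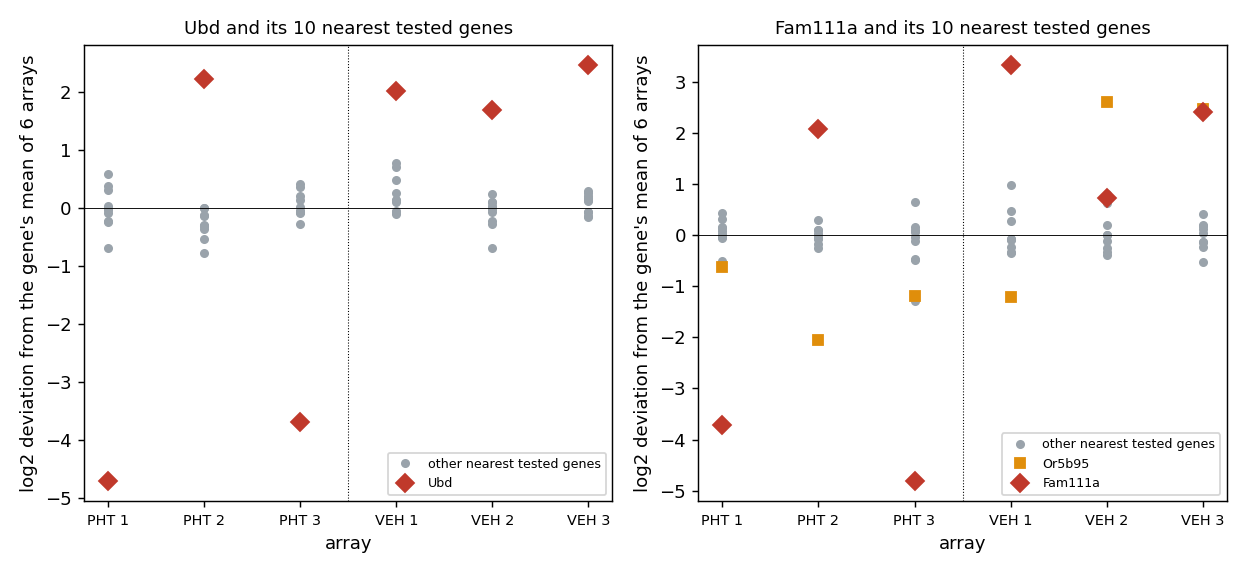
Log2 deviation from the gene's own mean over the 6 arrays for Ubd (left) and Fam111a (right), each with its 10 nearest tested genes, with phenolphthalein (PHT) left of vehicle (VEH) replicates. The steps of Ubd and Fam111a are not shared by the grey points, and Or5b95 is split differently, with vehicle replicates 2 and 3 high.

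Genes whose pattern over the 6 arrays was most like that of Ubd varied much less. Among 1620 named genes with a range of at least 1 on the log2 scale, the highest Pearson's r with Ubd were 0.99 for B3gnt3, a glycosyltransferase gene, 0.98 for Fam163a, 0.97 for Surf6, a nucleolar protein gene, 0.96 for Adam1a and 0.96 for Hjv, the hemojuvelin gene of iron regulation. Over the arrays, Surf6, Adam1a and Hjv ranged by 1.27, 1.13 and 1.09, against 7.15 for Ubd. B3gnt3 was well above background on only 3 arrays. Surf6 was at 2.37, 3.61 and 2.93 with phenolphthalein and 3.62, 3.48 and 3.64 with vehicle, with phenolphthalein replicate 3 between replicate 1 and the other arrays. Fam163a, well above background on all 6 arrays, was at -4.79, -3.29 and -4.71 with phenolphthalein and -3.42, -3.28 and -3.55 with vehicle. It thus had the split of Ubd, with a gap of 1.17. Of 1245 items with a largest gap of at least 1, 14 had this split, Ubd and Fam111a among them. The lowest r with Ubd were -0.95 for Lrtm2, -0.94 for Spock2, a proteoglycan gene, and -0.94 for Stk32a, a kinase gene.

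Fam111a was the 7th most like Ubd, and Ubd the 7th most like Fam111a, with r = 0.96. Both genes were chosen by their levels on these arrays, and the split that they share by itself gives a high r. The highest r with Fam111a were 0.98 for Pgm5, 0.97 for Rnase12, 0.97 for Prim2, the large subunit of DNA primase, 0.97 for the olfactory receptor gene Or5b104b and 0.97 for Adam1a. Prim2 was at 0.74, 1.51 and 0.16 with phenolphthalein and 2.25, 1.47 and 1.83 with vehicle. Or5b104b lies on chromosome 1 with 31 listed genes between it and Fam111a. It was at -7.25, -6.25 and -7.07 with phenolphthalein and -5.78, -6.23 and -5.92 with vehicle, well above background on 3 arrays. The lowest r with Fam111a were -0.95 for Sult1c3, a sulfotransferase gene, -0.91 for Slc39a2, a zinc transporter gene, and -0.91 for Sdcbp2. Rnase12 and Slc39a2 were each well above background on only 3 arrays. These values describe 6 arrays that share slides and scaling.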

How the data were processed

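The deposited scanner files hold spot intensity from 6 one-colour arrays, made with version 10.7.1.1 of Agilent's Feature Extraction, with background subtraction and detrending, per the file headers. The submitters' processing notes name version 10.7. The deposited value table holds a linear ratio, with no stated origin, equal to the intensity divided by the 75th percentile of the array. Its column medians lay between 0.102 and 0.106, and 0 of its columns were left out. Of 61657 probes, 27447 matched 1 gene symbol by RefSeq accession (GRCr8 gene table) and 34210 matched none. Well above background were 64.8% to 72.1% of probes per array, none was saturated, and 2 to 14 outlier spots per array were set to missing. The number of arrays limits the precision.

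The log2 intensity minus the log2 of the 75th percentile was analysed. The probe with the highest mean stood for a gene. Items well above background on at least 3 arrays were tested by limma (version 3.58.1, R 4.3.3; lmFit, eBayes with an intensity trend, Benjamini-Hochberg adjustment, two-sided, threshold 0.05), a fit also tested on simulated data. Of Fam111a, 3 probes passed this filter and their levels did not disagree, but only the brightest entered the limma fit. Members, lists and the naming rule were chosen with earlier results of these data known. The rule took all member probes, the 5 highest and 3 lowest correlations, the widest gaps, list members with the smallest p and 5 genes on either side. Same-numbered rats did not deviate together (correlations of -0.006, -0.015 and 0.025). Normexp (offset 50) used the median spot signal, as the files hold no mean signal. Some results are not reported here.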

Additional observations from a re-analysis of the deposited data

How the results depend on the processing

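The differences of Ubd and Fam111a stayed negative under every alternative. They ranged from -6.24 to -2.78 for Ubd and from -6.41 to -2.97 for Fam111a when 1 array was left out. Quantile normalization, median centring, the deposited value table and the median over probes gave -4.10 for Ubd, and -4.29, -4.29, -4.30 and -4.12 for Fam111a. The counts of genes higher and lower were 0 and 0 with each alternative that kept all 6 arrays, including the replicate block (0 and 0), which changed no call, and the slide as a random block (0 and 0). Leaving out 1 array gave 0 to 1 higher and 0 to 1 lower. Without phenolphthalein replicate 2 these were Atp7a and Ubd, without replicate 3 Prl3d4, and without vehicle replicate 1 an unnamed probe; the Ubd call rests on leaving out the rat of its group that was high. The count of items with a wide gap, 77, was 78 with quantile normalization, 16 with normexp, 34 with the filter on all 6 arrays and 455 with no filter. A gap of at least 2 gave 234 and of at least 4 gave 33. With normexp Fam111a itself, at 2.81, is no longer among them, and with the filter on all 6 arrays none of its 3 probes is tested. An alternative chosen after seeing the data, which set low spots not well above background to their bound, gave 61.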

Other observations

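Other named genes had wide steps between arrays, in other splits than Ubd and Fam111a. Gal, which encodes the neuropeptide galanin, had a gap of at least 8.79 on the log2 scale, standing at 3.46, 4.19 and 3.94 in the phenolphthalein arrays and 4.19, -5.33 and 5.05 in the vehicle arrays, where the low spot was not well above background. Akr1c2, an aldo-keto reductase gene, was also low in vehicle replicate 2 only, with a spot not well above background and a gap of at least 5.25. Slpi, a protease inhibitor gene of epithelia, was low in vehicle replicate 1 only, at -4.66, with a gap of 5.25. Zp2, an egg coat gene, was low in phenolphthalein replicate 1 and vehicle replicates 1 and 2, none of them well above background, with a gap of at least 3.73. Or5b123b, Larp6, Tac4 and Or13p4 were well above background on all 6 arrays and had gaps of 4.48, 4.43, 3.78 and 3.74. The gap of Spaca3 was at least 4.04. For Mmp20 it was at least 1.99, since all 3 of its low spots were not well above background. Or5b123b, high in vehicle replicate 3 only, lies on chromosome 1 with 30 listed genes between it and Fam111a. Of the 54 items in which a single array stood apart, 19 had vehicle replicate 2 as that array. It also had the lowest share of probes well above background, 64.8%.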
